A study of Caenorhabditis elegans with 2 samples.

Results

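The nuclear hormone receptor genes of Caenorhabditis elegans were examined for ChIP-seq peaks of EGL-43, a zinc finger transcription factor, in L4 larvae. The members were all protein-coding genes whose name starts with nhr-, with nhr-67 left out. There were 268 of them among 19973 protein-coding genes. ChIP-seq is chromatin immunoprecipitation followed by sequencing, and it was done with an antibody against GFP, in whole animals of strain RW12181, in which CRISPR had inserted a TY1, EGFP and 3xFLAG tag into egl-43 on chromosome II. The larvae were synchronised by starvation after bleaching and collected at 49 hours. There was 1 group with 2 biological replicates, and untagged worms or a control library were not analysed here. In whole animals, a site occupied in a few cells cannot be told apart from a weakly occupied site in many cells, and cell type markers could not be checked because peak lists hold no expression values.

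Nuclear hormone receptors are transcription factors with a zinc finger DNA-binding domain and a ligand-binding domain, and many respond to lipids, steroids or other small hydrophobic molecules. A minority of the worm receptors have clear insect or vertebrate orthologues. Most descend from an expansion of genes related to the vertebrate receptor HNF4, and many of these lie in clusters on chromosome V. Known members govern fat metabolism, the use of diet, moulting, developmental timing and organ formation.

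Of the 268 nhr genes, 167 (62.3%) lay on chromosome V, which holds 25% of all protein-coding genes. There were 32 on chromosome IV, 23 on X, 23 on I, 15 on II and 8 on III. A gene was counted as having a promoter summit when the highest point of a peak lay between 1000 bp upstream and 500 bp downstream of any of its transcription start sites (TSSs).

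A promoter summit in the list for both replicates together, which holds 3146 peaks, was found at 18 nhr genes. These were nhr-255, nhr-48, nhr-1, nhr-40 and nhr-35 on X, nhr-49, nhr-64, nhr-85 and nhr-217 on I, nhr-88 on II, nhr-10 on III, nhr-41 on IV, and nhr-47, nhr-193, nhr-241, nhr-247, nhr-142 and nhr-114 on V. Each had a summit of its own, so the 18 genes carried 18 distinct summits. Of these summits, 13 lay upstream of the nearest TSS of the gene and 5 downstream. By position, 10 were intergenic, 5 in an intron, 2 in a coding exon and 1 in an untranslated region.

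The DNA under some of the strongest of these summits is shown first, because the values below refer to it. Each line gives 101 bases of the RefSeq WBcel235 assembly around a summit, 5′ to 3′ on the strand of the nhr gene. At nhr-255 (X:15742001-15742101) and nhr-41 (IV:1388197-1388297) the summit lay inside an annotated tRNA gene, whose bases are in capitals.
nhr-255: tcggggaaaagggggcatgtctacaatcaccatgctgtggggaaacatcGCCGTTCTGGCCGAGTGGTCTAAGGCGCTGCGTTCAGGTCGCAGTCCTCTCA
nhr-41: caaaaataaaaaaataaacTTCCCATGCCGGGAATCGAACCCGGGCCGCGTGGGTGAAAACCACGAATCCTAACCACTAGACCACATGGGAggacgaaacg

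At the next 4 genes no small RNA gene lay within 200 bp of the summit, and the capitals mark the 11 bases centred on it. They are nhr-48 (X:15707590-15707690), nhr-1 (X:17513662-17513762), nhr-88 (II:2976773-2976873) and nhr-40 (X:2598857-2598957), all on the plus strand.
nhr-48: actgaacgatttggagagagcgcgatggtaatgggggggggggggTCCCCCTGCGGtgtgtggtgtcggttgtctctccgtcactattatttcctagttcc
nhr-1: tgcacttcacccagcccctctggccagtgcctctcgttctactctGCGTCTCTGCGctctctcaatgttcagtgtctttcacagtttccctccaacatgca
nhr-88: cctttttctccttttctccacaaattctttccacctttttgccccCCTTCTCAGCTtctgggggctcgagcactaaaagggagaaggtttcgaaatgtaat
nhr-40: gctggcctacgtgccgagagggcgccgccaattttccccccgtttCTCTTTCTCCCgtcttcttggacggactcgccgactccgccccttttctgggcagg

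These windows are rich in G and C or in pyrimidine runs, with a run of G beside the summit of nhr-48 and runs of C at nhr-88 and nhr-40. Over the 18 nhr summits the median GC content of the 101-base window was 54.0%, from 28.7% at nhr-10 to 64.4% at nhr-40. The median over all 1399 promoter summits in the list was 52.5%, and windows centred 300 bp to either side of all summits had a median of 34.7%. These medians were not tested against each other, and nhr-10 lay below the median of the flanks. GATAAG and GATGAG, searched on both strands, were in 0 of the 18 nhr windows. Among all 3146 summit windows GATAAG was in 2.32% and GATGAG in 6.45%, against 3.96% and 4.18% of the flanking windows.

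The share of nhr genes with a promoter summit was near that of all genes. It was 6.72% (18 of 268; 95% Wilson interval 4.29 to 10.4), and the background over all protein-coding genes was 7.57%. On chromosome V it was 3.59% (6 of 167; 1.66 to 7.62) against a background of 5.27%. On the other chromosomes together it was 11.9% (12 of 101; 6.93 to 19.6) against 8.33%. The nhr genes off V thus had a summit more often than those on V, by 8.29 percentage points, with a 95% interval from 1.91 to 16.3, and all genes differed in the same direction. The size depended on the list and the window. It was 2.76 points in the replicate 1 list, 4.74 in the replicate 2 list and 3.94 with a promoter from 500 bp upstream to 200 bp downstream. In the replicate 1 list the nhr shares on and off V were 1.20% and 3.96%, beside 2.36% and 4.47% of all genes. In the replicate 2 list they were 1.20% and 5.94%, beside 2.46% and 4.66%. With the narrower promoter they were 2.99% and 6.93%, beside 3.12% and 5.22%. In the list for both replicates together, the nhr intervals for all chromosomes, for V and for the others each held the background of the same chromosomes. The intervals cover counting error only and treat genes as independent, which clustered genes are not.

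Off chromosome V the summits were mostly on X and I. X had 5 of 23 nhr genes with a summit (21.7%; 9.66 to 41.9; background 8.50%), and I had 4 of 23 (17.4%; 6.98 to 37.1; background 10%). II had 1 of 15 (background 7.31%), III had 1 of 8 (background 9.28%) and IV had 1 of 32 (background 7.01%). Chromosomes X and I therefore gave 9 of the 12 summits off V. The interval for X began above its background and that for I held it. With nhr-255, whose summit lay in a tRNA gene, counted as without one, X had 4 of 23 (17.4%; 6.98 to 37.1), an interval that holds the background. Summits beside small RNA genes were not taken out of that background. In the replicate 1 list X had 3 of 23 (13.0%; 4.54 to 32.1), beside 4.87% of all genes on X. In the replicate 2 list it had 4 of 23 (17.4%; 6.98 to 37.1), beside 5.09%. In the conservative list it had 5 of 23 (21.7%; 9.66 to 41.9), beside 7.91%. The replicate 1 interval held its background, and those of the replicate 2 and conservative lists began above theirs. All of these lists still count nhr-255. No test was run over the chromosomes. Without X the share off V was 8.97% (7 of 78; 4.42 to 17.4), beside 8.30% of all genes on those chromosomes.

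**Figure D1:**
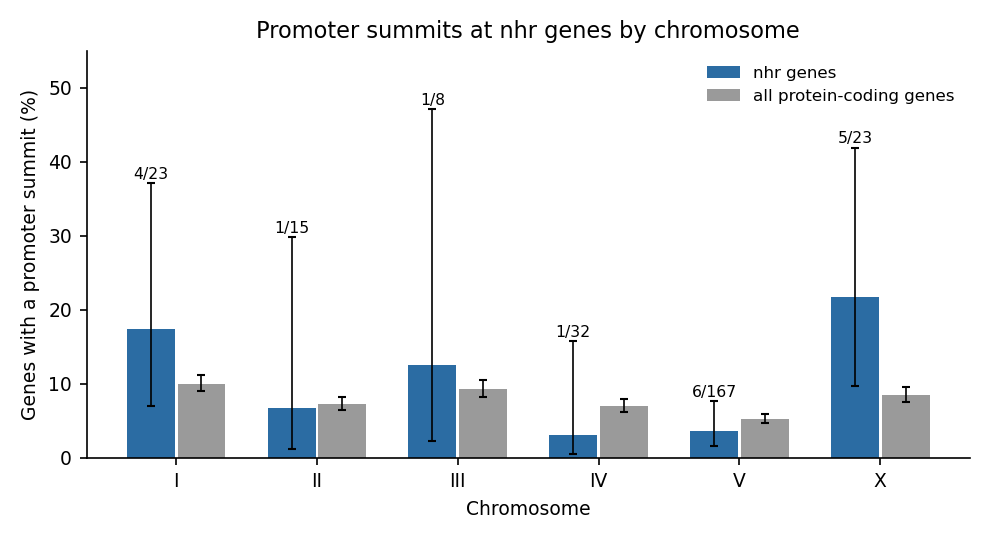
Percent of genes with a promoter summit (vertical axis) on each chromosome (horizontal axis), for nhr genes and for all protein-coding genes, with 95% Wilson intervals as bars. The nhr share on V (3.59%) lies below that on X (21.7%), and the nhr intervals are wide and hold the values of all genes on every chromosome but X.

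Of the 8 listed nhr genes with insect or vertebrate orthologues, 3 had a promoter summit (37.5%; 13.7 to 69.4), beside 7.57% of all genes. All 8 lay off V and had more than 1 TSS, and of all such genes 13.2% had a summit. Receptors without an nhr- name, such as daf-12, were listed separately. All 8 had at least a ranked summit, meaning a peak of any score in the authors' ranked list of 65641, beside 50% of all genes. This group and those below are short lists drawn up by role with earlier results known, so their shares are descriptions of the listed genes only. At nhr-48, related to the vitamin D receptor, the peak at X:15707613-15707748 had a signal of 279 and rank 356 in the list of 3146, with its summit 573 bp upstream of the TSS. The signal is the peak's own value as the authors deposited it, and rank 1 is the strongest. The matched peak reached 144 in replicate 1 and 131.5 in replicate 2, and it passed the threshold in both. At nhr-41, related to the vertebrate testicular receptors TR2 and TR4, the peak at IV:1388082-1388411 had a signal of 248 and rank 465. Its summit lay in an intron, 150 bp downstream of the nearest of the gene's 5 TSSs, an internal one. With only the most upstream TSS counted, nhr-41 had no promoter summit. The summit was within the tRNA gene shown above, at IV:1388216-1388287 on the minus strand. The peak therefore cannot be assigned to nhr-41 rather than to the tRNA gene. The matched signals were 114.2 and 126, and it too passed in both replicate lists.

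The remaining orthologue with a summit was nhr-85, related to vertebrate Rev-Erb and known for developmental timing. Its peak on chromosome I, from 13060366 to 13060695, had a signal of 127 and rank 2032, with signals of 65.1 and 55.6 in the replicates, and passed in neither replicate list. The other five members of this group had a ranked promoter summit that did not pass the threshold. The best was at nhr-23, the worm orthologue of ROR and a regulator of moulting, with a signal of 88.3 and rank 6869 in the ranked list. Its replicates stood apart, at 22.4 and 69.9. For nhr-6, an NR4A receptor needed for the spermatheca, the signal was 81.1, and for nhr-25, the FTZ-F1 orthologue of the epidermis, 63.6. For nhr-91, related to the germ cell nuclear factor, it was 43.8, and for nhr-8, of the vitamin D receptor group, 23.2. Thus nhr-48 and nhr-41 were the only receptors of this group called in each replicate separately, the latter with its summit in a tRNA gene.

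The receptors of metabolism had 4 of 12 members with a promoter summit (33.3%; 13.8 to 60.9), beside 7.57% of all genes. All but nhr-13, nhr-68 and nhr-114 lay off V, and all but nhr-69, nhr-10 and nhr-22 had more than 1 TSS. Of all genes off V with more than 1 TSS, 13.2% had a summit. At nhr-49, an HNF4-related regulator of fat use with functions like those of mammalian PPARα, the peak on chromosome I from 9869168 to 9869497 had a signal of 170.3 and rank 985. Its summit lay 318 bp upstream of the TSS, and the matched signals were 62.2 and 104. At nhr-64, also related to HNF4, the signal was 136, with 50.5 and 87.7 in the replicates. The nhr-64 summit lay 37 bp upstream of the nearest of its TSSs and passed in the replicate 2 list only. nhr-10 governs the propionate shunt that serves when vitamin B12 is low, and its peak at III:7115009-7115338 had a signal of 134. In replicate 1 the nhr-10 signal was 54.7, and no replicate 2 peak overlapped. nhr-114 governs the methionine cycle in response to diet, and its peak at V:4188474-4188803 had a signal of 109, with 69.2 and 45.8 in the replicates. The peaks of nhr-10 and nhr-114 were not in the conservative list, and those of nhr-49, nhr-10 and nhr-114 passed in neither replicate list.

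The other 8 receptors of metabolism had no promoter summit, among them nhr-66, nhr-80 and nhr-13, which act with nhr-49 on lipid genes. nhr-66 was the highest of all nhr genes without one, with a signal of 93.8 and rank 5617 in the ranked list, and replicate signals of 57.9 and 49.7. nhr-80 had a ranked summit of signal 60.1. nhr-13, nhr-69, nhr-68, nhr-28, nhr-22 and nhr-62 had no promoter summit in the series ranked list. In replicate 2 alone, nhr-13 had one of signal 16.93 and nhr-69 one of 8.08. Among genes that nhr-49 and nhr-80 regulate, 0 of the 7 found had a promoter summit, for which the Wilson interval reaches 35.4% and holds the 7.57% of all genes.

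In organ development, 2 of 5 listed genes had a summit (11.8 to 76.9%), beside 7.57% of all genes. All 5 lay off V, and all but nhr-2 had more than 1 TSS. Of all genes off V with more than 1 TSS, 13.2% had a summit, a share that the interval holds. At nhr-1, whose sequence is shown above, the peak at X:17513547-17513876 had a signal of 192 and rank 771, with 96.8 and 119 in the replicates. At nhr-40, known for muscle development and movement, the peak at X:2598742-2599071 had a signal of 166, with 81.9 and 86.3 in the replicates. The nhr-1 peak passed in both replicate lists and the nhr-40 peak in the replicate 2 list only. nhr-2 had a ranked signal of 46.2, and nhr-31, known from the excretory cell, had no ranked summit. In the group of stress and xenobiotic response, 1 of 4 had a summit (4.56 to 69.9%), again nhr-49. There nhr-86, known from the response to pathogens, had a ranked signal of 64.2, and nhr-176, known from the detoxification of thiabendazole, had none. In the group of epidermis, moulting and timing, 1 of 5 had a summit (3.62 to 62.45%), again nhr-85, and nhr-60 and nhr-77 had no summit in the series ranked list. Both of these intervals hold the 7.57% of all genes.

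The strongest promoter peak of an nhr gene was at nhr-255, a gene in none of these groups. At X:15741951-15742144 it had a signal of 434 and rank 108, with 186 and 246 in the replicates. Its summit was 559 bp upstream of the nhr-255 TSS and lay within the tRNA gene at X:15742050-15742133, so the peak cannot be assigned to nhr-255 rather than to the tRNA gene. It lay 34411 bp from the summit of nhr-48. A tRNA gene also lay 29 bp from the summit of nhr-193, at V:16341715-16342044, which had a signal of 158, with 64.1 and 80.02 in the replicates. No small RNA gene was within 200 bp of the summits of the other 15 members.

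On chromosome V the highest signal was at nhr-47. The peak at V:5505161-5505301 had a signal of 304 and rank 288, with 152 and 154 in the replicates. Its summit lay 13 bp upstream of the nhr-47 TSS and was also in the promoter of dnj-19, which encodes a DnaJ co-chaperone. The peak of nhr-142 at V:5790886-5791215, with a signal of 112 and replicate signals of 52.1 and 59.2, was likewise shared with another gene, F44E7.9. With each summit given only to the gene of the nearest TSS, nhr-142 had no promoter summit. nhr-241 had a signal of 135 in a coding exon, with 84.5 in replicate 1 and no overlapping peak in replicate 2. nhr-247 had a signal of 118.5, with 53.2 and 65.4 in the replicates. The 6 summits on V had a median signal of 127, against 168 for the 12 on the other chromosomes and 142 for all promoter summits.

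The other summits off V were at nhr-88, nhr-35 and nhr-217. The nhr-88 peak at II:2976658-2976987 had a signal of 172 in an intron, 184 bp downstream of the TSS, with 70.0 and 93.5 in the replicates. The nhr-35 peak at X:4532143-4532472 had a signal of 117, with 56.2 and 66.9, and the nhr-217 peak on chromosome I a signal of 116, with 53.0 and 64.2. None of these 3 peaks passed in a replicate list. Over all 18 members the signal ran from 109 to 434 with a median of 147, close to the 142 of all promoter summits. In the list, 11 of the 18 peaks ranked lower than place 1000.

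**Figure D2:**
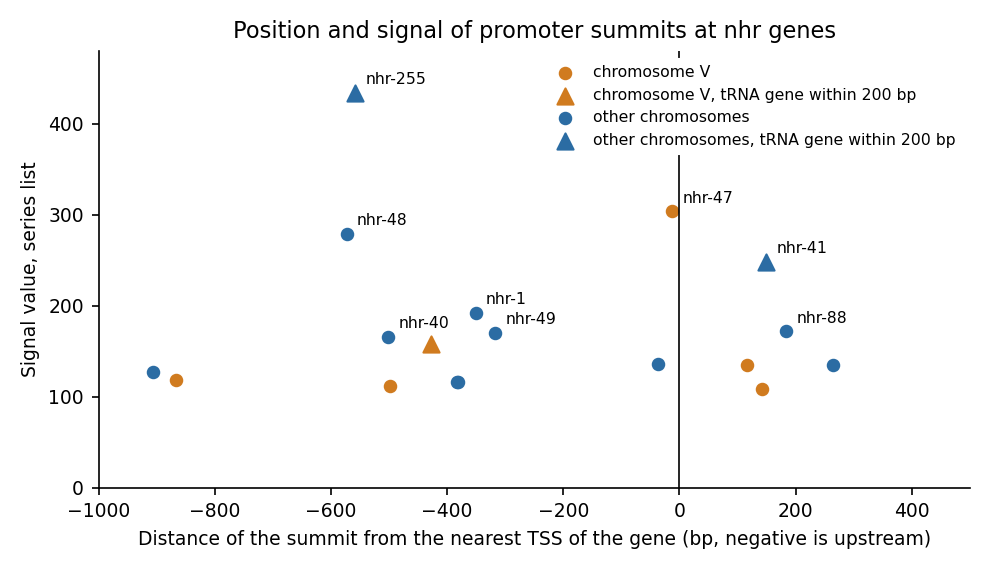
Signal of the peak (vertical axis, the authors' value) against the distance of its summit from the nearest TSS of the gene in bp (horizontal axis, upstream negative), for the 18 nhr genes with a promoter summit, with V and the other chromosomes marked apart. The strongest 4, nhr-255, nhr-47, nhr-48 and nhr-41, stand above 200, and 13 of the 18 lie upstream.

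The replicates differed in how many nhr genes they called. The replicate 1 list of 1532 peaks held 6 nhr genes (2.24%; background 3.94%), and the replicate 2 list of 1621 peaks held 8 (2.99%; background 4.11%). The 6 were nhr-255, nhr-47, nhr-48, nhr-41, nhr-1 and nhr-193, all of which were in both lists, and replicate 2 added nhr-40 and nhr-64. The other 10 members were called only with the replicates together. The conservative list of 3024 peaks kept 15 members (5.60%; background 7.23%) and left out nhr-10, nhr-114 and nhr-241. No nhr gene had a promoter summit in these lists without one in the list for both replicates.

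The matched signals were higher in replicate 2 at 13 of the 16 members that had a peak in both. Over all nhr genes with a ranked promoter summit in both replicates this was so at 56 of 91 (61.5%), and over all genes at 54.5%. At the called members the matched signals in replicate 1 ran from 50.5 to 186 with a median of 67.1, and in replicate 2 from 45.8 to 246 with a median of 87.0. nhr-48, nhr-85 and nhr-114 were higher in replicate 1. Across the 91 nhr genes with a ranked promoter summit in both replicates, the Spearman correlation of the highest promoter signal was 0.542, with 0.378 over the 45 on V and 0.690 over the 46 elsewhere. Over all 9265 such genes it was 0.613. The points share 2 libraries and neighbouring genes share peaks, so these are descriptions across genes.

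**Figure D3:**
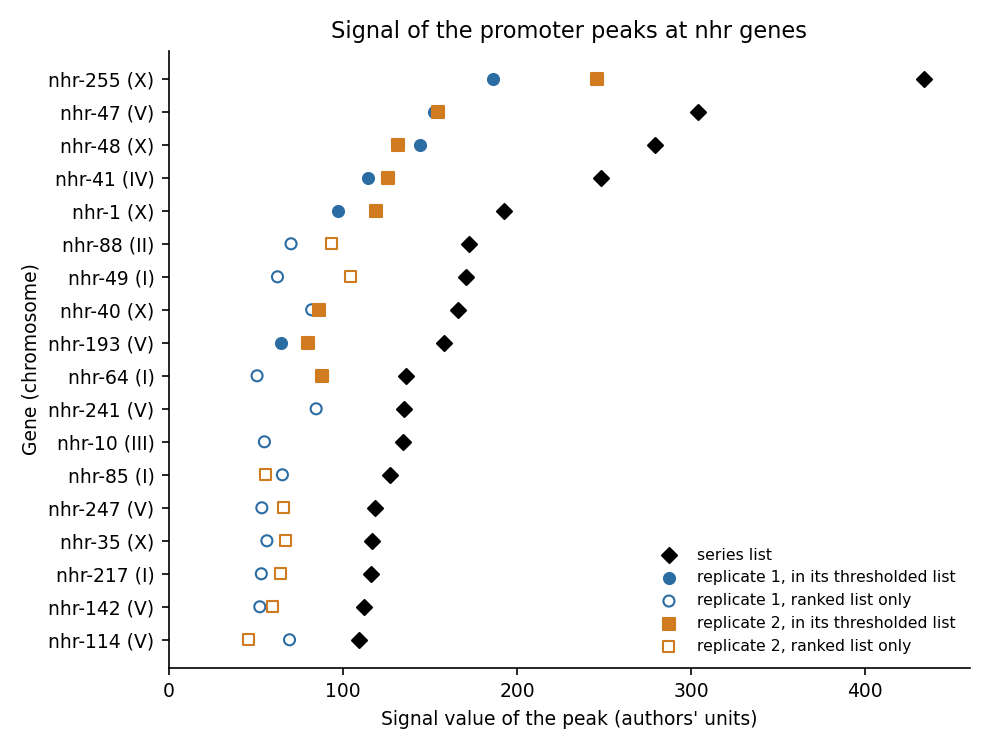
Signal of the matched peak in replicate 1 and replicate 2 (the authors' value) for each of the 18 nhr genes with a promoter summit. Replicate 2 is higher at 13 of the 16 members matched in both, and nhr-241 and nhr-10 have a replicate 1 value only.

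When ranked peaks of any score were counted, a smaller share of nhr genes than of all genes had a promoter summit. The count was 99 of 268 (36.9%; background 50%). On V it was 50 of 167 (29.9%; 23.5 to 37.3; background 37.9%), and on the other chromosomes 49 of 101 (48.5%; 39.0 to 58.1; background 54.0%). Thus 81 members had a ranked summit that did not pass, and 169 had none. The highest signals among them, after nhr-66, were 93.4 at nhr-15, 92.7 at nhr-21, 92.5 at nhr-116 and 89.0 at nhr-239, and the lowest signal of a called member was 109 at nhr-114. The threshold is on the authors' IDR score, a measure of reproducibility whose lowest value in the thresholded list was 830. Just inside it was nhr-142 with a score of 832, and the best scores outside it were 732 at nhr-66, 711 at nhr-21 (from another peak, of signal 77.75) and 616 at nhr-15.

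Most members without a ranked summit, like most such genes in general, lay in long stretches of the genome that held no ranked peak of any score. Gaps between neighbouring ranked summits were rarely between 8000 and 10000 bp, with 4 cases, and 214 were between 10000 and 12000 bp. Stretches of over 10000 bp numbered 1915, covered 51.2% of the genome and reached 314644 bp. All TSSs of 166 nhr genes (61.9%) lay in such stretches, against 49.9% of all genes. On V these were 68.3% of the 167 nhr genes, against 62.1% of all genes on V, and on the other chromosomes 51.5% of 101, against 45.9%. Of the 169 members with no ranked summit, 162 (95.9%) were in a stretch, beside 93.4% of all genes with none, among them nhr-68 in one of 60219 bp and nhr-22 in one of 68323 bp. In the replicate ranked lists 144 (53.7%) and 159 (59.3%) nhr genes lay in such stretches, beside 43.45% and 46.8% of all genes. In the series list and in both replicate lists alike, 135 of the 268 did so, beside 7905 of all 19973 genes. No value here separates absence of EGL-43 from the way the lists were made, and the cause of the stretches was not tested.

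**Figure D4:**
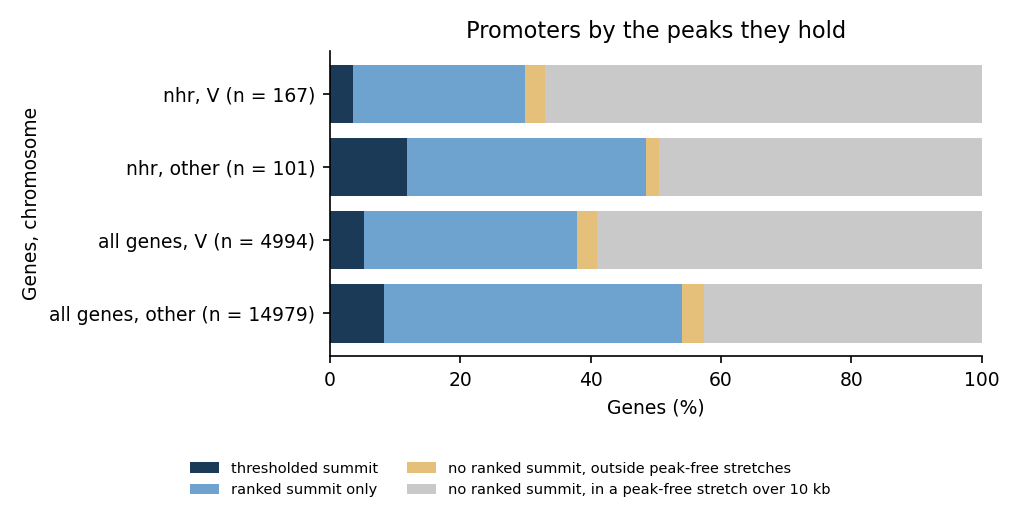
Percent of genes (horizontal axis) by the peaks their promoter holds, for nhr genes and all protein-coding genes on V and on the other chromosomes. The classes are a thresholded summit, only a ranked summit, no ranked summit outside a long stretch, and none within one. A long stretch is one of over 10000 bp without ranked peaks. The last class holds 67.1% of nhr genes on V and 49.5% of those elsewhere, beside 59.0% and 42.6% of all genes.

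Outside the stretches, nhr genes on V had a promoter summit about as often as other genes there. The share was 11.3% (6 of 53; 5.29 to 22.6), against a background of 12.7%. On the other chromosomes it was 22.45% (11 of 49; 13.0 to 35.9), against 14.6%. Inside the stretches 0 of the nhr genes on V had a summit, beside 0.709% of all genes in stretches on V. Elsewhere 1 of 52 had one, nhr-10 (1.92%), beside 0.946%. The low shares inside follow from the definition, since a stretch holds no ranked summit and thresholded peaks are among the ranked ones. Only a promoter that reaches the end of a stretch can hold one. The shares inside and outside are therefore not independent of each other, and no interval is given for those inside. In nhr promoters the median GC content was 33.2% inside the stretches and 36.3% outside, beside 34.0% and 36.6% for all genes.

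Off V the share with a summit was higher among nhr genes with several annotated TSSs, and on V the shares were alike. Of the 18 called members, 11 had more than 1 TSS. Off V, nhr genes with more than 1 TSS had a summit in 9 of 40 cases (22.5%; 12.3 to 37.5; background 13.2%), and those with 1 TSS in 3 of 61 (4.92%; background 6.49%). On V the counts were 2 of 55 (3.64%; background 9.59%) and 4 of 112 (3.57%; background 3.99%). Among genes with 1 TSS the shares on and off V therefore lay within 1.35 percentage points. With all members kept but only the most upstream TSS of each used, the difference was 5.92 points, and with the nearest TSS only it was 8.89. With the most upstream TSS only, nhr-41, nhr-40, nhr-85 and nhr-114 had no promoter summit. More than 1 TSS was annotated for 32.9% of nhr genes on V and 39.6% of the others. The part of the number of TSSs in the difference was not tested.

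**Figure D5:**
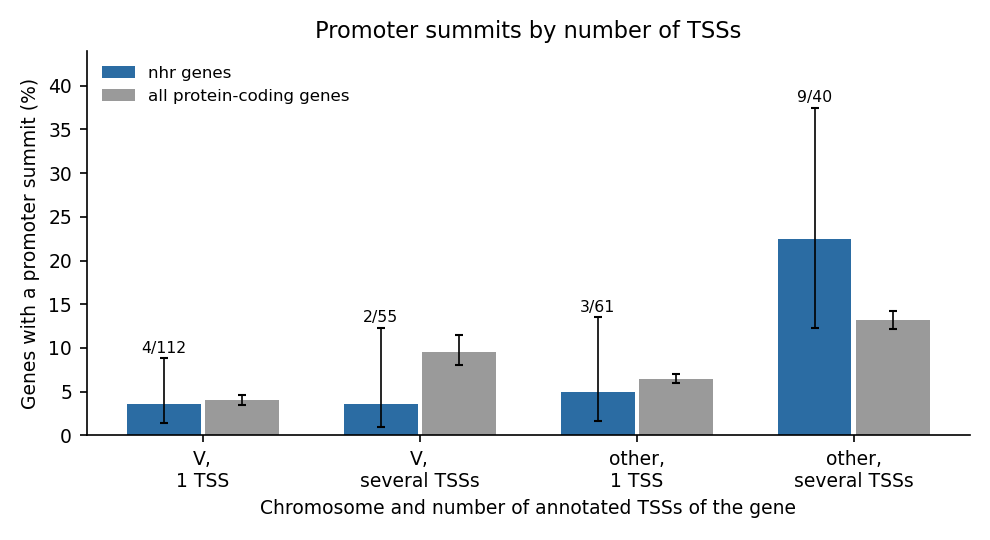
Percent of genes with a promoter summit (vertical axis) for genes with 1 TSS and with more than 1, on V and on the other chromosomes, for nhr genes and all protein-coding genes, with 95% Wilson intervals. The nhr genes off V with more than 1 TSS stand highest at 22.5%, and their interval holds the 13.2% of all such genes.

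Position along the chromosome differed as well. Off V, 9 of 49 nhr genes nearer the ends, within 25% of the chromosome length of either end, had a summit (18.4%; 9.98 to 31.4; background 9.24%), against 3 of 52 nearer the centre (5.77%; background 7.63%). On V, 3 of 111 nearer the ends had one (2.70%; background 4.64%) and 3 of 56 in the centre (5.36%; background 5.83%). On V, 107 of the 167 nhr genes stood next to another nhr gene, and 1 of these had a summit, nhr-247 (0.935%; 0.165 to 5.11; background of V 5.27%). Of the 60 without such a neighbour 5 had one (8.33%; 3.61 to 18.1). Off V, 30 of 101 stood next to another, and 0 of these had a summit (up to 11.35%; background 8.33%), against 12 of 71 without such a neighbour (16.9%; 9.94 to 27.3). Stretches without ranked peaks held 72.0% of the members with an nhr neighbour on V and 61.7% of those without, and 76.7% against 40.85% elsewhere, and their part in these counts was not tested.

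A wider search, from 5000 bp upstream to the end of the gene, gave 39 nhr genes. On V these were 17 of 167 (10.2%; 6.45 to 15.7; background 14.0%), and on the other chromosomes 22 of 101 (21.8%; 14.9 to 30.8; background 20.8%). The 21 members found only this way rested on 19 distinct summits, since nearby genes share some. nhr-106, nhr-130 and nhr-211 share the peak at V:488055-488384, and nhr-18, nhr-126 and nhr-134 share that at V:2227700-2228029, with signals of 157 and 105. The strongest was at nhr-17, at X:12665116-12665392, with a signal of 588 and rank 43, in an intron beside a tRNA gene. Its nearest TSS was that of nlp-76. nhr-277 had a peak of signal 449 at 2766 bp upstream, with no small RNA gene near it. Among the role groups, nhr-13 had a peak of 174 at 1911 bp upstream in an intron of srbc-42, nhr-91 one of 170 in its own intron, and nhr-86 one of 136 at 1264 bp upstream. The nhr-13 peak was nearest to the TSS of srbc-42, and the nhr-86 peak to that of lbp-9. These genes of the wider search, other than those of the role groups, were chosen after their values were seen.

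Of other genes in receptor signalling, the cofactors had the strongest peaks. cbp-1, the CBP and p300 orthologue, had a promoter peak of signal 494 and rank 69 at III:9765501-9765738, with 223 and 275 in the replicates. din-1, a corepressor of the steroid receptor DAF-12, had peaks of 237 and 216 at separate TSSs, the first at a snoRNA gene. These were 2 of 8 genes listed for cofactors and for dafachronic acid synthesis (7.15 to 59.1%, beside 7.57% of all genes), and mdt-15, a Mediator subunit and coactivator of NHR-49, had no promoter summit. None of the 5 listed receptors with another name, daf-12, odr-7, unc-55, fax-1 and sex-1, had one, for which the interval reaches 43.45% and holds that share. The best ranked signal of daf-12 was 87.6, close to that of nhr-23. For scale, the 2 peaks within 10 kb of egl-43 itself had signals of 147.2 and 146.8, at the median of the nhr summits.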

How the data were processed

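Peak lists on ce11 were analysed for 2 replicates of 1 group. Per the file headers, they are irreproducible discovery rate (IDR) lists, ranked and thresholded, for each replicate and for the series, with a conservative version. Neither aligner nor peak caller is given in the sources used here. The signal and the IDR score of each peak are the authors' deposited values, used to describe, rank and filter within a list. The summit offset in bp was deposited with each peak. Read depth is unknown, so a single signal has no interval.

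Genes and TSSs came from Ensembl release 115 on WBcel235, sequences from RefSeq WBcel235. Replicate peaks were matched by at least 1 bp of overlap, taking the closest summit. Shares carry 95% Wilson intervals, for counting error only. No test was run, since there is 1 group. Named are all members with a thresholded promoter summit, the 5 highest ranked without one, and the role groups. Members and groups were chosen with earlier results of these data known. Alternatives were other lists, peaks at or above the median signal, other promoter widths and subsets of genes. Promoter counting was tested on simulated summits. Python 3.11.15, pandas 2.3.3, numpy 2.4.6 and matplotlib 3.10.9 were used.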

Additional observations from a re-analysis of the deposited data

How the results depend on the processing

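Of 90 alternative values of the reported counts, shares and medians, 64 kept within the margin set for each and 26 moved. These margins were wide, so the 64 are not a measure of stability. The difference between V and the others counted as kept at 2.76 in place of 8.29 points. The gene count did so at 12 in place of 18. The share of nhr genes with a promoter summit was higher off chromosome V in 14 of 14 alternatives, and so was that of all genes. Among these alternatives, ranked peaks past the lowest thresholded score gave the same values as the thresholded list and add nothing to it. The alternatives reuse the same peaks, so the count of 14 does not set nhr genes apart. Off V the nhr share was below that of all genes in the replicate 1 list, at 3.96% against 4.47%. It was also below among genes with 1 TSS, at 4.92% against 6.49%, and above in the other alternatives. Peaks at or above the median signal left 9 genes, 2 on V and 7 elsewhere, with 9 summits. These were 1.20% and 6.93% of nhr genes, beside 2.60% and 4.88% of all genes. A promoter from 500 bp upstream left 7 genes off V (6.93%; background 5.22%), and one from 2000 bp upstream gave 10 on V (5.99%; background 7.33%). The search from 5000 bp upstream to the gene end gave 39 genes, 17 on V and 22 elsewhere, with 46 summits. These were 10.2% and 21.8% of nhr genes, beside 14.0% and 20.8% of all genes. Genes with 1 TSS alone, chosen after seeing the data, gave 7 genes with 7 summits, 3 of them off V, and a difference of 1.35 percentage points. Of all such genes 3.99% on V and 6.49% elsewhere had a summit. With 1 replicate left out, the count was 6 to 8 genes, 2 on V in either case and 4 to 6 elsewhere, with 6 to 9 summits. The difference was 2.76 to 4.74 points. The shares of all genes were then 2.36 to 2.46% on V and 4.47 to 4.66% elsewhere. The median percentile of the best ranked promoter peak off V, with genes lacking one set at 0, was 0, and 0.219 to 16.2 with 1 replicate. Stretches of over 20000 bp held 50.9% of nhr genes on V and 37.6% elsewhere, beside 50.3% and 31.95% of all genes. Stretches of over 10000 bp in single replicates held 58.1 to 65.3% on V and 46.5 to 49.5% elsewhere. For all genes these were 54.75 to 59.1% and 39.7 to 42.7%. The causes of these shifts were not tested beyond the smaller or larger sets each uses. No paired analysis was possible because the replicates form a single group. Without a control library, EGL-43 binding and other sources of signal, as at the tRNA genes near 3 summits, cannot be told apart.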
